A study of Mus musculus with 17 samples.

Results

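The 10 genes of endothelial activation, leukocyte adhesion and vessel-wall haemostasis described here were measured in mouse lung after focal irradiation: Vcam1, Icam1, Sele, Selp, Vwf, Edn1, Nos3, Thbd, Ackr1 and Angpt2. They were chosen by gene symbol from the table of gene counts, as 10 of its 45777 genes, and all 10 were among the 22052 genes with enough counts to be tested. The mice were wild-type males of the C57BL/6 strain that arrived at 6 weeks of age and were housed for a week before the left lung was irradiated in a single fraction through a small cone. Non-irradiated control mice were sampled at 2 weeks (3 libraries) and 6 weeks (3 libraries). Mice given 65 Gy were sampled at 2 weeks (3 libraries) and 6 weeks (2 libraries), and mice given 75 Gy at 2 weeks (3 libraries) and 6 weeks (3 libraries). No group carried a transgene or another agent. RNA of irradiated mice came from the lesions of the lung, and each library is bulk tissue in which fewer cells of a type and less RNA per cell cannot be told apart. The dose is delivered to a small volume of 1 lung, which limits the model to a focal, high-dose injury.

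Quiescent endothelium keeps blood fluid and holds leukocytes off the vessel wall, with thrombomodulin and endothelial nitric oxide synthase among its protective products. When it is activated by cytokines or injury, it displays selectins that slow leukocytes and the immunoglobulin-type molecules VCAM-1 and ICAM-1 that hold them, and it releases von Willebrand factor, P-selectin and angiopoietin-2 from storage granules. Radiation injury of the lung is known for loss of microvascular endothelium and adhesion of leukocytes. Several of these genes are not made by endothelium alone: Icam1 is also made by alveolar epithelium and macrophages, Vcam1 by stromal cells, Vwf and Selp by megakaryocytes, and Edn1 by airway epithelium.

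Promoter sequence is shown for the 5 members that had a RefSeq entry (GRCm38.p6), because adhesion genes are classic targets of inflammatory transcription factors and the lines show which short motifs each start region holds. Each line gives the 250 bases before the annotated start, 5′ to 3′ on the strand of the gene, with every motif match before the start in capitals. Icam1 lies at chr9:21015690-21015939 on the plus strand, Sele at chr1:164047984-164048233 on the plus strand, Selp at chr1:164115014-164115263 on the plus strand, Ackr1 at chr1:173333504-173333753 on the minus strand and Edn1 at chr13:42301226-42301475 on the plus strand. Vcam1, Vwf, Nos3, Thbd and Angpt2 are named only. The start used for Sele lies inside its RefSeq gene span, given below.
Icam1: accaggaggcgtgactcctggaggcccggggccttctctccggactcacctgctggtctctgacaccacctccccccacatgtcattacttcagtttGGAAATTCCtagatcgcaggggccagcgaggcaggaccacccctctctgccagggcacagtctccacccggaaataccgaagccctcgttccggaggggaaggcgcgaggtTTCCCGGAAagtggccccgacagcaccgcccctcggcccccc
Sele: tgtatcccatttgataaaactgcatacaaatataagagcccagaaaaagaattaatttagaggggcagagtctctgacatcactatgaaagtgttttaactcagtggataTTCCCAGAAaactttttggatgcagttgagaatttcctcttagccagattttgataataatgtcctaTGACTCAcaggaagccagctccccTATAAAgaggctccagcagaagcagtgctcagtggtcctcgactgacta
Selp: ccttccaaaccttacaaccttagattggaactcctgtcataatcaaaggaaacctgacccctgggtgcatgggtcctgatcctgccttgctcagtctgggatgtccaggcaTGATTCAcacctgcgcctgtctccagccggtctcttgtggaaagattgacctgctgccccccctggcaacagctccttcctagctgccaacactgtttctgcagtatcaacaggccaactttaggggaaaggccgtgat
Ackr1: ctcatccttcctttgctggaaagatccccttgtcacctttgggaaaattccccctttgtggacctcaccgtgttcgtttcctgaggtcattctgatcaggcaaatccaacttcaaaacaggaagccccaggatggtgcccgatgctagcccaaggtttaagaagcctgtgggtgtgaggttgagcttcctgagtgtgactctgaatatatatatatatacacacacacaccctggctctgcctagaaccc
Edn1: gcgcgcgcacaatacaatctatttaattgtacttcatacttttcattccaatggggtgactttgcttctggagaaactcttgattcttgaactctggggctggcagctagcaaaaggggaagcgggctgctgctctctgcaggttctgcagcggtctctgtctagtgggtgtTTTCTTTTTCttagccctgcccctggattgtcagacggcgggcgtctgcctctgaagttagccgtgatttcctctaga

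Motifs were sought on both strands of windows that reach 250 bases before and 50 bases after the start, in 32851 windows of all genes. In Icam1 the letters GGAANTTCC, a palindromic kappaB motif, began 153 bases before the start, and 0.928% of all windows hold them; this motif was added after the windows had been read. The AP-1 motif TGANTCA, in 7.81% of windows, began 73 bases before the start of Sele and 139 bases before that of Selp. The gamma-activated sequence TTCNNNGAA, in 8.3% of windows, began 42 bases before the start of Icam1 and 140 bases before that of Sele. Sele alone of the 5 held the TATA box letters TATAAA before its start (49 bases; 13.6% of windows), and Icam1 held them after it. In Edn1 the interferon regulatory factor core motif matched on the minus strand from 78 bases before the start (3.44% of windows). The GATA letters AGATAA, in 11.2% of windows, matched only after the start, in Edn1 and Ackr1, and the general kappaB consensus, in 4.51% of windows, matched in none of the 5. The capitals differ between genes that changed alike: Selp and Ackr1 both rose at 6 weeks, and the window of Ackr1 holds no match before the start.

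Total counts per library ran from 46764569 to 66797879, with a median of 57608149, so a level of 1 CPM (counts scaled to a common library size) stood for 46.7 to 67.66 reads. Levels are given as CPM scaled by edgeR's TMM factors. A gene is said to have risen or fallen where edgeR's quasi-likelihood test gave a p of at most 0.05 after Benjamini-Hochberg adjustment over all genes tested, and to be called where its log2 fold change was also at least 1 in size. Library 3134 of the 75 Gy group at 2 weeks stood apart, with the lowest summed level of 15 pan-endothelial markers of all libraries (2180.9 CPM, against at most 3959.1 CPM in its group). Values without it are given for some of the results only. Without it Selp after 65 Gy at 2 weeks (0.57, adjusted p = 0.0356) and Vwf after 65 Gy at 6 weeks (-0.71, adjusted p = 0.0317) passed in edgeR's test. The log2 difference of Nos3 after 75 Gy at 2 weeks was then 0.06.

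In RefSeq (GRCm38.p6) the leukocyte-binding genes lie at chr3:116110020-116129688 (Vcam1, minus strand), chr9:21015940-21028814 (Icam1, plus), chr1:164039614-164058487 (Sele, plus), chr1:164115264-164150026 (Selp, plus) and chr1:173331886-173333503 (Ackr1, minus). The others lie at chr6:125552948-125686679 (Vwf, plus), chr13:42301476-42307990 (Edn1, plus), chr5:24364816-24384474 (Nos3, plus), chr2:148404471-148408188 (Thbd, minus) and chr8:18690263-18741562 (Angpt2, minus). Strands and exon lengths, over all annotated transcripts, are those of GENCODE. Compared per kilobase of exon, the control libraries held most RNA of Thbd (223.7 CPM per kilobase), followed by Icam1 (106.8), Vwf (44.6), Edn1 (24.4), Vcam1 (10.3), Angpt2 (7.82), Nos3 (6.66), Selp (1.46), Sele (0.884) and Ackr1 (0.133). In the 11 irradiated libraries Icam1 (136.3 CPM per kilobase) and Thbd (111.6) had changed places, and Vcam1 (14.3) stood level with Edn1 (14.4). The selectins and Ackr1 were therefore the lowly expressed members, and their values rest on the fewest reads.

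**Figure D1:**
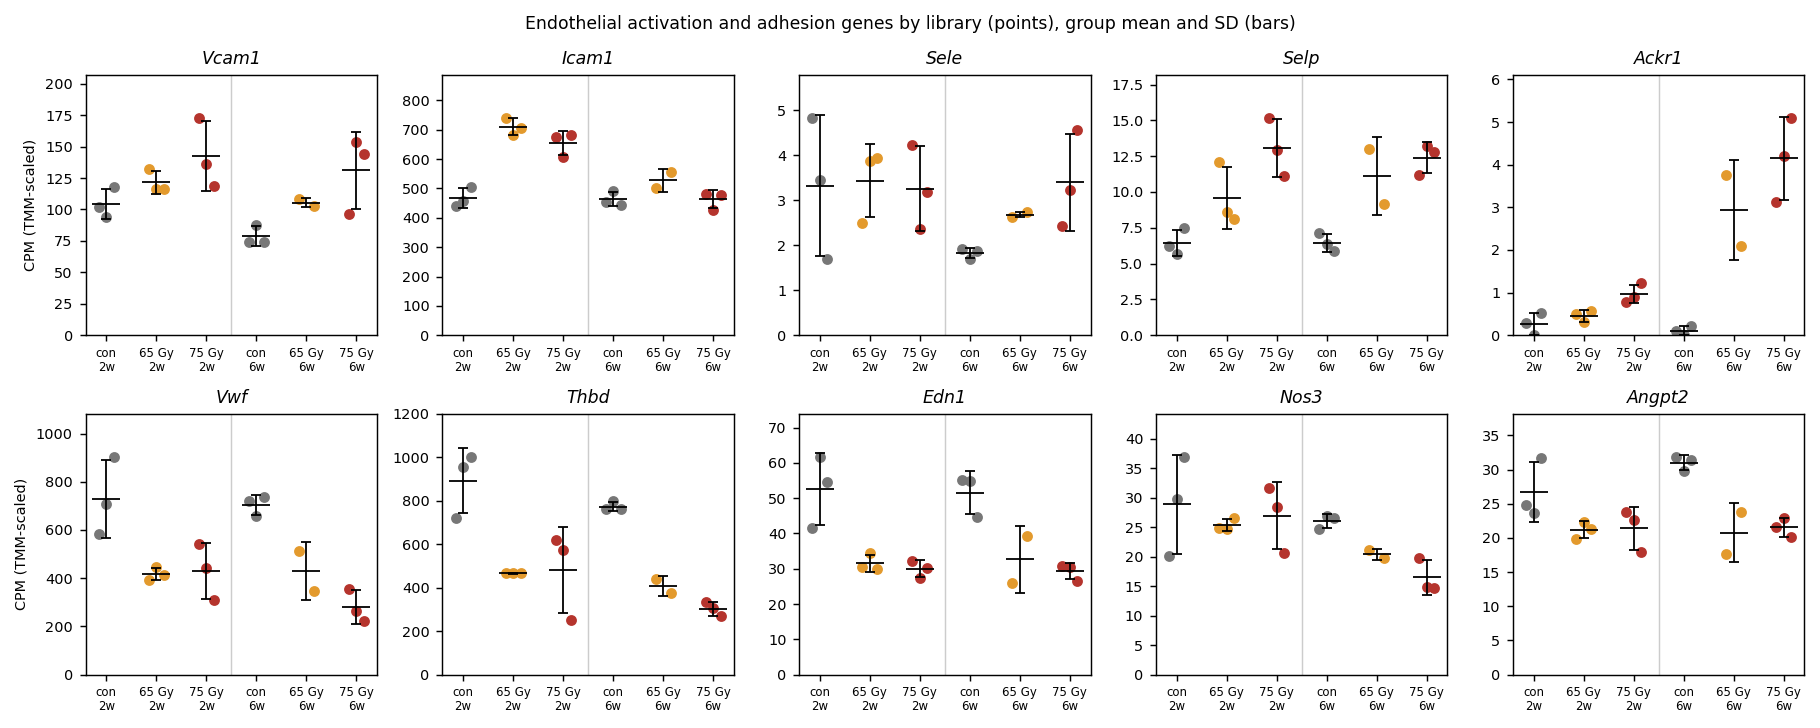
Levels of the 10 genes in each of the 17 libraries (points, in TMM-scaled CPM on a linear axis from 0), with the group mean and SD as black bars; controls are grey, 65 Gy orange and 75 Gy red. Thbd, Vwf and Edn1 lie below the controls of their time in every irradiated group, Selp lies above them in every group, and Ackr1 is near 0 in controls and highest at 6 weeks.

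Against the controls of the same time, 1 member rose and 3 fell after 65 Gy at 2 weeks, where 6.70% of all genes rose and 4.29% fell. After 75 Gy at 2 weeks 2 members rose and 3 fell, where 11.8% of all genes rose and 10.5% fell. At 6 weeks 65 Gy gave 2 members that rose and 3 that fell (7.66% and 7.01% of all genes), and 75 Gy gave 4 that rose and 5 that fell (18% and 18%). With the fold limit added, 0 members were called after 65 Gy at 2 weeks, 1 after 75 Gy at 2 weeks, 1 after 65 Gy at 6 weeks and 3 after 75 Gy at 6 weeks, against 4.35%, 7.74%, 5.28% and 10.4% of all genes. For the 65 Gy group at 2 weeks no member reached both limits with an unadjusted p either, nor with DESeq2 or edgeR's exact test. The libraries of the groups did not overlap for 2 higher and 4 lower members (65 Gy) and 4 higher and 3 lower members (75 Gy) at 2 weeks, against 15.9%, 13.5%, 15.5% and 14.8% of all genes. At 6 weeks this held for 5 higher and 5 lower members (65 Gy, with 2 libraries) and 4 higher and 5 lower members (75 Gy), against 28.2%, 28.1%, 29.4% and 27.7%. The median log2 fold change of the members was -0.07, -0.06, -0.08 and -0.26 in these 4 comparisons, beside -0.01, 0.00, 0.01 and 0.04 over all genes, since members moved in both directions. Both doses were compared with the same controls at each time, so the comparisons at 65 and 75 Gy are not independent of each other. P-values measure the spread between these libraries, each taken as a separate animal only as far as the labels go.

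**Figure D2:**
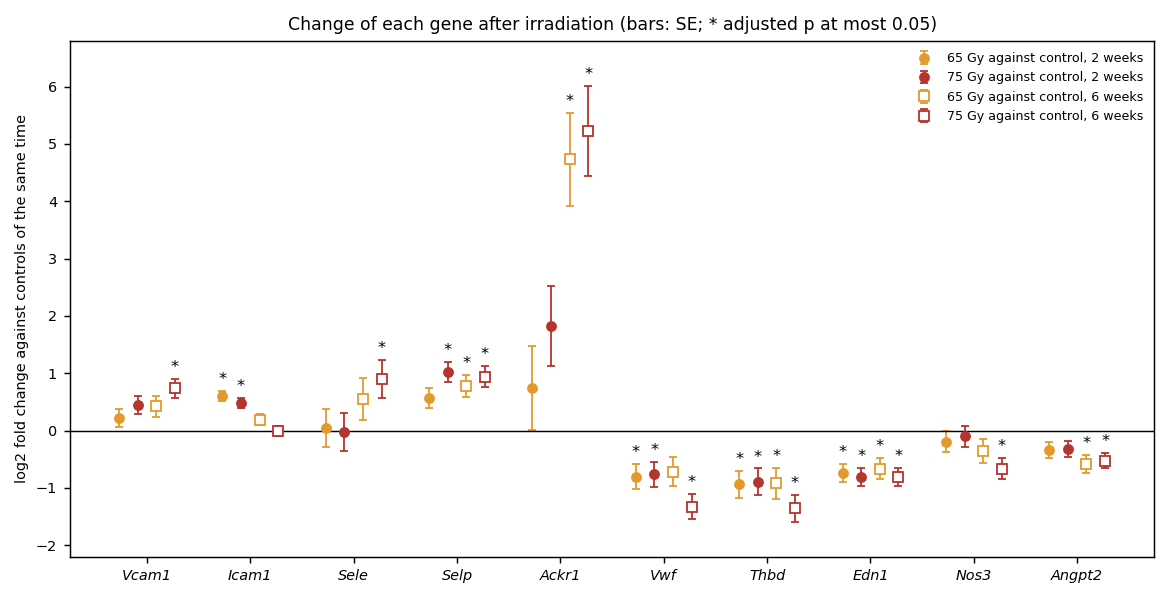
Log2 fold change of each gene against the controls of the same time, with bars for the SE and a star where the adjusted p was at most 0.05; filled circles are 2 weeks, open squares 6 weeks, orange 65 Gy and red 75 Gy. Ackr1 reaches 4.73 and 5.23 at 6 weeks, and Vwf, Edn1 and Thbd are below 0 in all 4 comparisons.

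Ackr1 encodes the atypical chemokine receptor of venular endothelium and red cells, which binds inflammatory chemokines without signalling through G proteins. It was almost silent in control lung. The 2-week controls read 0.284, 0 and 0.515 CPM and the 6-week controls 0.0973, 0 and 0.227 CPM, from 0 to 27 reads per library. At 2 weeks it read 0.5, 0.301 and 0.57 CPM after 65 Gy and 0.788, 0.902 and 1.21 CPM after 75 Gy. At 6 weeks it read 3.76 and 2.1 CPM after 65 Gy and 3.13, 4.21 and 5.09 CPM after 75 Gy, from 123 to 279 reads. The 65 Gy libraries overlapped the controls at 2 weeks, whereas the other 3 irradiated groups lay wholly above them. Ackr1 rose at 6 weeks, by 4.73 ± 0.81 (SE) after 65 Gy and 5.23 ± 0.78 after 75 Gy on the log2 scale, with adjusted p of 0.00178 and 0.000206 in edgeR's quasi-likelihood test. These are fitted folds of 26.5 and 37.5 against a control group of very few reads, so their size is imprecise (95% intervals of the log2 fold change 3.01 to 6.45 and 3.56 to 6.90). At 2 weeks the differences were 0.75 ± 0.73 (adjusted p = 0.582) and 1.83 ± 0.70 (adjusted p = 0.0761) by the same edgeR test; the latter passed with DESeq2 (1.85, adjusted p = 0.0314), with edgeR's exact test (adjusted p = 0.0479) and without control library 3128 (2.72, adjusted p = 0.0406).

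The change of Ackr1 between the times was itself compared, with 6 weeks set against 2 weeks. The effect of 75 Gy was larger by 3.40 ± 1.06 and that of 65 Gy by 3.98 ± 1.10 at 6 weeks on the log2 scale. Unadjusted p were 0.00568 and 0.00259, and neither passed in edgeR's quasi-likelihood test (adjusted p = 0.172 and 0.371), while DESeq2 gave adjusted p of 0.0261 and 0.0337. Ackr1 overlaps Cadm3 in the annotation, an adhesion molecule gene on the same strand, which differed by -0.14 and 0.33 at 2 weeks (adjusted p = 0.828 and 0.465 in edgeR's test) and rose by 1.09 and 1.33 at 6 weeks (adjusted p = 0.0366 and 0.00322), and how shared reads were divided is not given in the sources used here. The other receptors of the family moved the other way or did not pass: in the 75 Gy group at 6 weeks Ackr2, a scavenger on lymphatic endothelium, fell by 1.12 and Ackr4 by 1.42 on the log2 scale, and Ackr3 differed by 0.39 without passing. Of 5 vein markers 1 rose and 4 fell after 75 Gy at 6 weeks, and 1 rose and 1 fell after 65 Gy at 6 weeks. The riser at both doses was Bst1 (1.33 after 75 Gy), which leukocytes also make. Erythroid cells also carry the receptor, and of 7 erythroid markers 0 rose and 4 fell after 75 Gy at 6 weeks. After 65 Gy at 6 weeks 0 rose and 0 fell. The part of venous, leukocyte and erythroid cells in the values of Ackr1 was not tested.

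The selectins capture leukocytes in flow. Selp, encoding P-selectin, was higher than the controls of its time in every irradiated group. Control libraries read 6.21, 5.65 and 7.48 CPM at 2 weeks and 7.12, 6.4 and 5.85 CPM at 6 weeks. After 65 Gy they read 12.1, 8.63 and 8.09 CPM at 2 weeks and 13 and 9.17 CPM at 6 weeks, and after 75 Gy 15.2, 13 and 11.1 CPM at 2 weeks and 11.2, 13.2 and 12.8 CPM at 6 weeks. The lowest irradiated library thus stood above the highest control library of either time, which 6.07% of all genes matched. Selp rose after 75 Gy at 2 weeks (1.02 ± 0.18, adjusted p = 0.00111), after 65 Gy at 6 weeks (0.78 ± 0.20, adjusted p = 0.0163) and after 75 Gy at 6 weeks (0.94 ± 0.18, adjusted p = 0.00109) in edgeR's quasi-likelihood test. After 65 Gy at 2 weeks the log2 difference was 0.57 ± 0.18 and just missed the limit (adjusted p = 0.0527), passing with DESeq2 (adjusted p = 0.0246), edgeR's exact test (adjusted p = 0.0337) and at least 10 counts in every library (adjusted p = 0.0481). The rise after 65 Gy at 6 weeks rested on 2 libraries and was lost without library 3138 (0.52, adjusted p = 0.233 with edgeR) and without control libraries 3136 (0.77, adjusted p = 0.0507) or 3137 (0.71, adjusted p = 0.0601). After 75 Gy at 2 weeks the log2 fold change was 0.93 without control library 3127 and 0.89 without library 3132, both under the fold limit. P-selectin is also a platelet protein, and the platelet and megakaryocyte list fell at 6 weeks. There 4 of its 10 markers were lower after 65 Gy and 8 after 75 Gy, with 0 and 1 higher. Its summed level at 6 weeks was 99.2 to 121.9 CPM in controls and 62.3 to 68.7 CPM after 75 Gy. The 2-week controls summed to 77.3 to 117.6 CPM. From 2 to 6 weeks the list's median log2 fold change in controls was 0.87, with 0 of 10 markers passing, and that difference enters the comparison at 6 weeks. The part of platelets in the values of Selp was not tested.

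Sele encodes E-selectin, made almost only by activated endothelium. It was lowly expressed, and control libraries differed by time. They read 4.83, 3.45 and 1.70 CPM at 2 weeks and 1.91, 1.69 and 1.87 CPM at 6 weeks. Irradiated libraries read 2.37 to 4.24 CPM at 2 weeks, within the control range, and 2.64 and 2.73 CPM after 65 Gy and 2.43, 3.22 and 4.56 CPM after 75 Gy at 6 weeks, above the controls of that time. Sele rose after 75 Gy at 6 weeks (0.90 ± 0.33, adjusted p = 0.0468 in edgeR's quasi-likelihood test), while at 2 weeks the log2 differences were 0.05 ± 0.33 and -0.03 ± 0.33. It was lost in 10 of the 17 fits that leave out 1 library, with adjusted p of 0.0553 (control 3127) to 0.203 (library 3143, log2 fold change 0.65), the others being 3130, 3131, 3135, 3136, 3137, 3138, 3140 and 3142. It was also lost when every gene with at least 1 count was kept (0.90, adjusted p = 0.0603), and the difference after 65 Gy at 6 weeks passed with only the groups compared in the fit (0.59, adjusted p = 0.0386). In the controls Sele was 0.86 ± 0.33 lower at 6 than at 2 weeks on the log2 scale (unadjusted p = 0.0206, adjusted p = 0.229 in edgeR's test), and that difference enters the comparison at 6 weeks.

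Vcam1 and Icam1 encode the ligands of the leukocyte integrins VLA-4 and LFA-1. Vcam1 read 102, 94.0 and 117.6 CPM in controls at 2 weeks and 74.1, 87.9 and 74.1 CPM at 6 weeks. Irradiated libraries read 132, 116 and 117 CPM after 65 Gy and 173, 136 and 118.3 CPM after 75 Gy at 2 weeks, then 108 and 103 CPM after 65 Gy and 96.4, 154 and 144 CPM after 75 Gy at 6 weeks. The 65 Gy group at 2 weeks overlapped its controls; the other irradiated groups did not, though library 3134 stood only just above the highest control. Vcam1 rose after 75 Gy at 6 weeks (0.74 ± 0.16, adjusted p = 0.00305 in edgeR's quasi-likelihood test), a fold of 1.67. The 3 other differences were 0.22, 0.45 and 0.42 on the log2 scale, with adjusted p of 0.444, 0.0613 and 0.132, and that at 75 Gy and 2 weeks passed with DESeq2 (adjusted p = 0.036), with edgeR's exact test (adjusted p = 0.0421), with at least 10 counts in every library (0.46, adjusted p = 0.0471) and without library 3134 (0.57, adjusted p = 0.0348). At 65 Gy and 6 weeks it passed with only the groups compared in the fit (0.45, adjusted p = 0.00866). The effect on Vcam1 at 6 weeks differed from that at 2 weeks by 0.29 ± 0.23 for 75 Gy (unadjusted p = 0.226 in the edgeR fit over all genes) and 0.20 ± 0.24 for 65 Gy (unadjusted p = 0.419).

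Icam1 was higher early. Controls read 440, 458 and 506 CPM at 2 weeks, and the irradiated libraries 740, 682 and 707 CPM after 65 Gy and 677, 607 and 682 CPM after 75 Gy, so every irradiated library of that time was above every control. At 6 weeks controls read 455, 490 and 444 CPM, and the 65 Gy libraries 501 and 556 CPM. The 75 Gy libraries read 482, 427 and 478 CPM, which overlapped the controls, with 427 CPM below the lowest of them. Icam1 rose at 2 weeks, by 0.60 ± 0.09 after 65 Gy and 0.49 ± 0.09 after 75 Gy (adjusted p = 0.000544 and 0.00138 in edgeR's quasi-likelihood test), and the log2 differences at 6 weeks were 0.19 ± 0.10 and -0.00 ± 0.09 (adjusted p = 0.209 and 0.991). With only the groups compared in the fit, the rise after 75 Gy at 2 weeks did not pass (0.49, adjusted p = 0.0742). The difference between the times was -0.49 ± 0.12 for 75 Gy and -0.41 ± 0.13 for 65 Gy (unadjusted p = 0.00138 and 0.00737), and neither passed over all genes with edgeR (adjusted p = 0.117 and 0.452), although DESeq2 gave an adjusted p of 0.00347 for 75 Gy and 0.119 for 65 Gy. The control libraries of the 2 times differed by only 0.02 on the log2 scale.

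Leukocyte genes were measured beside these molecules. Of 11 counter-receptors 5 rose at each dose at 2 weeks, and 3 and 4 rose after 65 and 75 Gy at 6 weeks. Itgb2, the beta chain of LFA-1 and Mac-1, rose by 1.27 to 1.63 and Itgax, an integrin of macrophages and dendritic cells, by 1.15 to 1.74 on the log2 scale over the 4 comparisons. Cd44, a hyaluronan receptor that also binds E-selectin, rose by 0.50 to 0.63. Of 8 leukocyte markers 3, 5, 3 and 3 rose and 1, 2, 1 and 1 fell over the 4 comparisons. Cd68 of macrophages rose by 2.14 to 2.48, whereas S100a8 of neutrophils fell at both doses at 2 weeks (-2.06 after 75 Gy) and Cd79a of B cells fell by 0.91 to 0.94 in all but 65 Gy at 2 weeks (-0.34). The summed leukocyte markers read 4450 to 5014 CPM in controls and 13123 to 14299 CPM after 75 Gy at 6 weeks, yet at 2 weeks the controls spread from 5060 to 10588 CPM and overlapped the 65 Gy libraries (8350 to 9207 CPM). After 75 Gy at 2 weeks the sum was 11294 to 13111 CPM. Icam1 overlapped the controls after 75 Gy at 6 weeks, and the part of leukocytes in the adhesion values was not tested.

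Among other adhesion molecules of the endothelium, 1 of 12 rose and 3 fell after 65 Gy at 2 weeks, 1 rose and 6 fell after 75 Gy at 2 weeks, and at 6 weeks 2 rose at either dose while 4 and 5 fell. Cd34, a sialomucin of endothelium and progenitor cells, rose by 0.53 to 0.69 on the log2 scale over the 4 comparisons. Podxl, a related sialomucin, fell by 0.46 to 1.06, and Esam, a junctional molecule, fell by 0.47 to 0.67. The median over the 12 was -0.20 to -0.29, beside all-gene medians near 0.

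Vwf, Thbd and Edn1 fell together in most comparisons. Thbd encodes thrombomodulin, the cofactor that turns thrombin towards activation of protein C. It read 721, 956 and 1000 CPM in controls at 2 weeks and 762, 797 and 761 CPM at 6 weeks. After 65 Gy it read 469, 467 and 465 CPM at 2 weeks and 441 and 376 CPM at 6 weeks, and after 75 Gy 617, 573 and 252 CPM at 2 weeks and 334, 305 and 270 CPM at 6 weeks. The highest irradiated library was below the lowest control, which 4.5% of all genes matched. Thbd fell in all 4 comparisons, by 0.94 ± 0.23, 0.89 ± 0.23, 0.92 ± 0.27 and 1.35 ± 0.24 on the log2 scale for 65 Gy and 75 Gy at 2 weeks and 65 Gy and 75 Gy at 6 weeks, with adjusted p of 0.0193, 0.0129, 0.0324 and 0.000611 in edgeR's quasi-likelihood test. Library 3134 was the lowest of the 2-week libraries, and without it the fall after 75 Gy was 0.58 (adjusted p = 0.00735). At 65 Gy the adjusted p rose to between 0.0564 and 0.0662 when any of libraries 3127, 3128, 3129, 3130 or 3131 was left out at 2 weeks, and to between 0.0655 and 0.215 when any of 3135, 3136, 3137, 3138 or 3140 was left out at 6 weeks. With only the groups compared in the fit, the fall after 75 Gy at 2 weeks did not pass (-0.88, adjusted p = 0.15).

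Vwf encodes the multimeric carrier of factor VIII that tethers platelets. Control libraries read 582, 706 and 902 CPM at 2 weeks and 719, 658 and 736 CPM at 6 weeks. After 65 Gy they read 394, 446 and 414 CPM at 2 weeks and 514 and 345 CPM at 6 weeks, and after 75 Gy 542, 440 and 308 CPM at 2 weeks and 357, 263 and 222 CPM at 6 weeks. All irradiated libraries were below all controls of either time. Vwf fell by 0.80 ± 0.22 after 65 Gy and 0.76 ± 0.22 after 75 Gy at 2 weeks (adjusted p = 0.0285 and 0.0205) and by 1.33 ± 0.22 after 75 Gy at 6 weeks (adjusted p = 0.000428) in edgeR's quasi-likelihood test, a level 2.51 times lower in the last. After 65 Gy at 6 weeks the log2 difference was -0.71 ± 0.25 (adjusted p = 0.0658), which passed with DESeq2 (adjusted p = 0.0288), edgeR's exact test (adjusted p = 0.0362) and only the groups compared (adjusted p = 0.0206). Leaving out library 3134 gave -0.57 (adjusted p = 0.0889) and leaving out control 3128 gave -0.58 (adjusted p = 0.099) for 75 Gy at 2 weeks, and with only the groups compared in the fit it was -0.75 (adjusted p = 0.114); for 65 Gy at 2 weeks the adjusted p was 0.0598 to 0.119 without 3127, 3128, 3129, 3130 or 3131. The platelet markers given beside Selp fell at 6 weeks. At 2 weeks 0 of 10 passed as higher or lower, with median log2 fold changes of -0.06 (65 Gy) and -0.36 (75 Gy). The part of platelets and megakaryocytes in the values of Vwf was not tested.

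Edn1, which encodes the vasoconstrictor endothelin-1, changed to much the same extent in each group. It read 41.5, 61.6 and 54.6 CPM in controls at 2 weeks and 55.1, 55.0 and 44.7 CPM at 6 weeks. It read 30.5, 34.4 and 29.9 CPM after 65 Gy and 32.2, 27.5 and 30.3 CPM after 75 Gy at 2 weeks, and 25.9 and 39.3 CPM after 65 Gy and 30.8, 30.6 and 26.6 CPM after 75 Gy at 6 weeks. No irradiated library reached a control. Edn1 fell by 0.74 ± 0.16, 0.81 ± 0.16, 0.66 ± 0.18 and 0.81 ± 0.16 on the log2 scale in the same order of groups as above, with adjusted p of 0.00851, 0.00226, 0.0237 and 0.00128 in edgeR's quasi-likelihood test. At 65 Gy and 6 weeks the fall was lost without library 3138 (-0.38, adjusted p = 0.284) or without control 3135 (adjusted p = 0.071) or 3136 (adjusted p = 0.0729). Of 7 genes of its pathway 3 fell and 0 rose in each comparison other than 65 Gy at 6 weeks, where 1 fell, and the others did not pass. Ece1, which cuts the precursor of endothelin-1, fell by 0.55 to 1.22 and Ednrb, the receptor that clears it and a marker of aerocyte capillaries, differed by -1.05 to -1.42, passing in all but 65 Gy at 6 weeks.

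Beside Thbd, the protein C receptor gene Procr rose by 1.48 to 2.05 and Plau, the urokinase plasminogen activator, by 1.41 to 2.18 on the log2 scale, so the genes of thrombomodulin and of the protein C receptor, which act together, moved in opposite directions. Of 15 genes of coagulation and fibrinolysis 3, 4, 2 and 6 rose and 1, 2, 0 and 2 fell over the 4 comparisons, with medians of 0.04, 0.09, 0.17 and 0.35. F2rl1, a protease-activated receptor, fell by 0.28 to 0.46 in all but 65 Gy at 6 weeks (-0.18). The flow-responsive factors Klf2 and Klf4, which are known to hold up Thbd and Nos3 in endothelium, were lower: Klf4 fell by 0.83 to 1.48, and Klf2 fell by 0.74 to 1.65 in all but 65 Gy at 6 weeks (-0.65, adjusted p = 0.0631 with edgeR). The part of Klf2 and Klf4 in the values of Thbd and Nos3 was not tested. Gata2, an endothelial and haematopoietic factor, fell by 0.94 to 1.82. Of the 17 regulators on that list, which also holds the cytokine and NF-kB genes, 4, 4, 1 and 3 rose and 3, 4, 3 and 6 fell.

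Nos3 and Angpt2 changed least among the genes that fell. Nos3, the endothelial nitric oxide synthase, read 20.1 to 36.9 CPM in controls at 2 weeks and 20.7 to 31.7 CPM in irradiated libraries, which overlapped, and 24.7 to 26.9 CPM in controls at 6 weeks against 21.1 and 19.7 CPM after 65 Gy and 19.8, 14.9 and 14.7 CPM after 75 Gy. Nos3 fell after 75 Gy at 6 weeks (-0.66 ± 0.19, adjusted p = 0.0141 in edgeR's quasi-likelihood test), and lost this without library 3142 (-0.58, adjusted p = 0.0639) or 3143 (-0.57, adjusted p = 0.0689). The other log2 differences were -0.19, -0.10 and -0.35, the last passing with only the groups compared in the fit (-0.32, adjusted p = 0.0186 with edgeR). Nos3 overlaps Atg9b on the opposite strand, which rose by 1.67 to 2.65 in all 4 comparisons from about 0.6 to 0.8 CPM in controls; whether counting used strand is not given in the sources used here. In the nitric oxide pathway Cav1, the caveolar inhibitor of the enzyme, fell by 0.64 to 0.94 and Gch1, which starts the synthesis of its cofactor, rose by 0.55 to 0.79, and of 12 genes 1, 2, 2 and 2 rose and 2, 3, 3 and 4 fell.

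Angpt2, the context-dependent antagonist of the Tie2 receptor, read 23.6 to 31.7 CPM in controls at 2 weeks and 29.8 to 31.8 CPM at 6 weeks. Irradiated libraries read 17.9 to 23.7 CPM at 2 weeks and 17.7 to 23.8 CPM at 6 weeks. It fell at 6 weeks, by 0.58 ± 0.15 after 65 Gy and 0.52 ± 0.14 after 75 Gy (adjusted p = 0.0216 and 0.00795 in edgeR's quasi-likelihood test), and the log2 differences at 2 weeks were -0.33 and -0.32 (adjusted p = 0.134 and 0.106). The 65 Gy fall was lost without library 3138 (-0.37, adjusted p = 0.277) or without controls 3135 (adjusted p = 0.0602) or 3137 (adjusted p = 0.0555). Its receptor gene Tek fell by 1.18 to 1.57, the related Tie1 by 0.67 to 1.30 and the phosphatase Ptprb, which restrains Tie2, by 0.94 to 2.04 on the log2 scale. Angpt2 overlaps Mcph1 on the opposite strand, which rose by 0.45 and 0.43 at 2 weeks (adjusted p = 0.0379 and 0.0284 in edgeR's test) and differed by -0.28 and -0.25 at 6 weeks (adjusted p = 0.212 and 0.144). Of 7 genes of this pathway 3, 3, 3 and 4 fell and 0 rose.

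Averaged over the 4 irradiated groups against both control groups, 4 members rose (Vcam1 0.46, Icam1 0.32, Selp 0.83 and Ackr1 3.13 on the log2 scale) and 5 fell (Vwf -0.90, Edn1 -0.76, Nos3 -0.33, Thbd -1.02 and Angpt2 -0.44), where 20.6% of all genes rose and 21.0% fell. Sele differed by 0.37 (adjusted p = 0.173 in edgeR's quasi-likelihood test), passing without control library 3126 (0.56, adjusted p = 0.0367) and with the scaling to endothelial markers described below (1.18, adjusted p = 0.000237). Nos3 passed narrowly (adjusted p = 0.0356) and did not pass in 11 of the 17 fits without 1 library, with adjusted p of 0.0503 to 0.141, the highest without control 3128 (-0.22); the others were 3127, 3129, 3130, 3135, 3136, 3137, 3138, 3140, 3142 and 3143. It did not pass either when every gene with at least 1 count was kept (-0.31, adjusted p = 0.0594). Ackr1 and Thbd were called, against 8.48% of all genes, but Thbd was no longer over the fold limit without 3127, 3128, 3134, 3140 or 3143 (-0.95 without 3134).

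The doses were compared directly, and 0 of 10 members passed at either time in edgeR's quasi-likelihood test, where 0.0% of all genes passed. At 2 weeks 1 member had an unadjusted p of at most 0.05, Selp (0.45 ± 0.18 higher after 75 Gy, unadjusted p = 0.0227 in the same edgeR fit, 95% interval 0.07 to 0.82), and at 6 weeks 1, Vwf (-0.61 ± 0.24, unadjusted p = 0.0219, 95% interval -1.13 to -0.10). DESeq2 and edgeR's exact test also passed 0 members in both. With an unadjusted p of at most 0.05 and the fold limit, 287 and 259 of all 22052 genes were called at 2 and 6 weeks in the edgeR fit. Selp and Vwf did not reach that fold limit. The share of all genes at the unadjusted p alone was not computed, so these p-values are not read as a difference between doses. The interval for Ackr1 reached from -0.32 to 2.48 at 2 weeks and from -0.92 to 1.92 at 6 weeks, which leaves room for a difference of either sign. Between the control groups 0 of 10 members passed in edgeR's test, where 1.63% of all genes did. There Vcam1 differed by -0.41 ± 0.16 (unadjusted p = 0.0245 in the edgeR fit over all genes), and Sele as given above. For the change of the effect with time 0 members passed, where 0.299% (75 Gy) and 0.0136% (65 Gy) of all genes did. Icam1 and Ackr1 had an unadjusted p of at most 0.05 at each dose in the same edgeR fit. With that unadjusted p and the fold limit, 978 (75 Gy) and 660 (65 Gy) of all 22052 genes were called, Ackr1 among them and Icam1 not.

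Endothelial markers themselves were lower in irradiated lung. Of 15 pan-endothelial genes 7, 11, 11 and 13 fell over the 4 comparisons and 1, 1, 0 and 0 rose, with median log2 fold changes of -0.51, -0.75, -0.80 and -1.08. Their summed level was 4988 to 5664 CPM in controls at 2 weeks and 5362 to 5520 CPM at 6 weeks, against 3601 to 3682 CPM and 2181 to 3959 CPM at 2 weeks and 2954 to 3260 CPM and 2314 to 2811 CPM at 6 weeks after 65 and 75 Gy. General capillary markers fell furthest at 2 weeks (medians -1.21 and -1.06), with Plvap lower by 0.96 to 1.37. Over the 4 comparisons 3, 6, 3 and 6 of these 7 markers fell and 0 rose. Artery markers had medians of -0.66 to -0.91: 6, 6, 4 and 7 of 8 fell, and 0, 0, 1 and 1 rose. Lymphatic markers had medians of -0.66 to -0.85: 4, 4, 2 and 5 of 6 fell and 0 rose. Of 8 aerocyte markers 3, 4, 2 and 7 fell, and 1, 1, 0 and 0 rose. No marker of these lists was at 0 in any group.

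**Figure D3:**
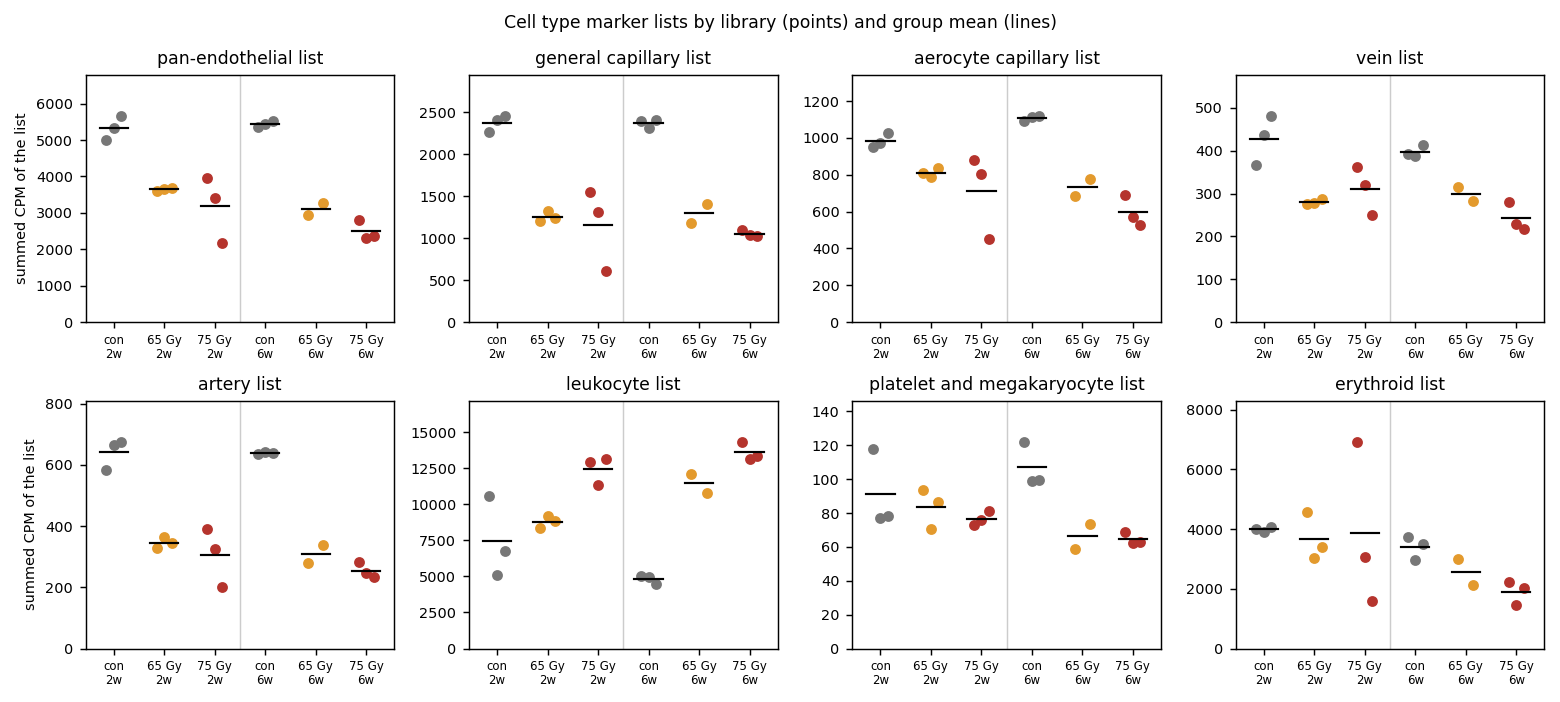
Summed TMM-scaled CPM of 8 cell type marker lists in each library (points) with the group mean (black lines), on linear axes from 0; controls are grey, 65 Gy orange and 75 Gy red. Pan-endothelial, capillary and artery lists lie below the controls of their time in every irradiated group, and the leukocyte list lies above them at 6 weeks.

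Each member was therefore also set against the mean log2 level of the pan-endothelial list in the same library. On that scale the difference from the controls was 5.41 and 6.24 for Ackr1 at 6 weeks (65 and 75 Gy), 1.02 to 1.91 for Selp, 0.69 to 1.68 for Vcam1, 0.86 to 1.15 for Icam1 and 0.60 to 1.81 for Sele over the 4 groups. Nos3 stood 0.30 to 0.59 and Angpt2 0.07 to 0.44 above the controls. Edn1 differed by -0.26 to 0.16, Vwf by -0.07 to -0.39 and Thbd by -0.26 to -0.46. The sign for Thbd, Vwf and Edn1 depended on the list. Against the general capillary list the differences at 2 weeks were 0.07 and 0.14 for Thbd, 0.21 and 0.35 for Vwf and 0.28 and 0.34 for Edn1 (65 and 75 Gy). At 6 weeks they were -0.12 and -0.27, 0.07 and -0.26, and 0.12 and 0.28 in the same order. After 75 Gy at 2 weeks the positive value for Edn1 rested on library 3134. Edn1 stood at a log2 ratio of -1.16 there, against -2.42 and -2.45 in the others and a control mean of -2.34. For Vwf the ratios were 2.18 in library 3134 and 1.65 and 1.55 in the others, against a control mean of 1.45. Members wholly above their controls numbered 4 (65 Gy, 2 weeks), 6 (75 Gy, 2 weeks), 6 (65 Gy, 6 weeks) and 7 (75 Gy, 6 weeks), where 53.5%, 45.6%, 77.3% and 82.6% of all genes did the same, so these counts stood near the background. Wholly below were 2, 0, 1 and 2 members (Thbd in the comparisons with any, and Vwf at 65 Gy and 2 weeks and at 75 Gy and 6 weeks), against 1.81%, 1.49%, 2.12% and 1.46% of all genes.

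With the libraries scaled to the pan-endothelial counts in the edgeR fit, the median of all genes moved to 0.53, 0.82, 0.82 and 1.17 on the log2 scale, so a gene made outside endothelium would also be placed above 0. On this scale 3, 6, 6 and 7 members passed as higher, against 30.9%, 64.9%, 60.0% and 78.2% of all genes, and 0 passed as lower, against 0.481%, 0.834%, 0.218% and 0.399%. The member counts were thus near the background and say little by themselves. The scaling moves genes by similar amounts, so the order of the members stays much as before and is no separate result. After 75 Gy at 2 weeks Edn1 (0.03) and Vwf (-0.004) changed places, from -0.81 and -0.76 under TMM. At 75 Gy and 6 weeks Ackr1 (6.37), Selp (2.08), Sele (2.05) and Vcam1 (1.89) lay above the all-gene median of 1.17, and Icam1 (1.13) lay beside it. Angpt2 (0.61), Nos3 (0.45), Edn1 (0.31), Vwf (-0.22) and Thbd (-0.23) lay below it. In the comparison of all irradiated with all control groups 7 members passed as higher on this scale, against 80.8% of all genes, and 1 as lower, Thbd (-0.23, adjusted p = 0.042 with edgeR), against 0.825%.

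**Figure D4:**
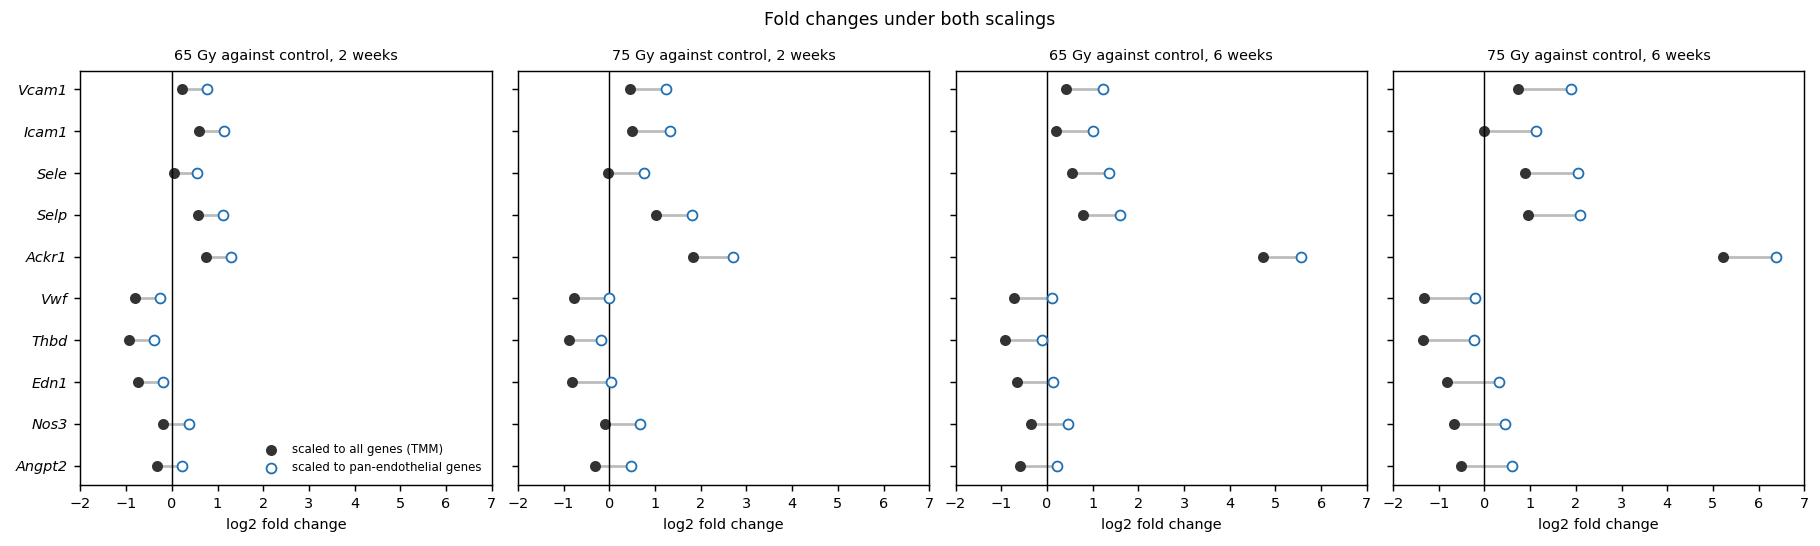
Log2 fold change of each gene with libraries scaled over all genes (TMM, filled) and scaled to the pan-endothelial list (open), 1 panel per comparison with the controls of the same time. Every gene moves right under the second scaling, and Ackr1 stays the furthest right in each panel at 6 weeks.

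The genes most like each member over the 17 libraries were found by Pearson's r of log2 CPM among 14483 genes, as a description. Thbd was most like She, Klhl5 and Bcl2l2 (r = 0.98), and Vwf most like Il6st, Chst1 and Ntn1 (0.97), of which Chst1 is on the aerocyte list. Nos3 was most like Ephb3, Sox7 and Hspa12b (0.94 to 0.95), and Selp most like Gpr34, Klri1 and Ptgir (0.93 to 0.96). For Ackr1 the nearest were Lpl, Mrc1 and Mt2 (0.91 to 0.92), for Icam1 Veph1, Coro1c and Nkiras2 (0.93 to 0.94), and for Vcam1 Ppic, Fstl1 and Prss35 (0.90 to 0.92). Edn1 was nearest to Heca, Gad1-ps and Vps54 (0.94), Angpt2 to Acvr2a, Tcf4 and Rad50 (0.91 to 0.93) and Sele to Kpna1, Usp15 and Abce1 (0.89 to 0.92). The libraries share dose groups, and with deviations from the group means in place of levels 3 of these 30 genes remained nearest.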

How the data were processed

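Poly(A)-selected RNA from 17 mouse lung samples was sequenced, and the values used are the raw gene counts the authors deposited. Per the authors' methods, reads were quality checked with FastQC, trimmed with Trimmomatic, aligned with HISAT2 to the mouse genome (GRCm38.p6) and assembled with StringTie; the step to whole-number counts and its use of strand are not given in the sources used here. Genes with at least 10 counts by edgeR's filter (total at least 15) were kept, 22052 of 45777. Libraries were scaled by TMM factors, and edgeR 4.0.16 (R 4.3.3) was fitted to all 17 libraries with 1 coefficient per group; the quasi-likelihood test was adjusted by Benjamini-Hochberg over all genes tested, and called genes had an adjusted p of at most 0.05 and a log2 fold change of at least 1 in size. DESeq2 1.42.0, edgeR's exact test, other filters, scalings and samples were alternatives. The fit was tested on simulated data. Depth ran from 46764569 to 66797879 counts per library. Named were all 10 members, up to 3 genes of each context list by the smallest p, and the 3 genes most like each member. Exon lengths and overlaps came from GENCODE, positions and promoters from RefSeq, and 95% intervals from the t distribution with each gene's edgeR degrees of freedom. The falls within the list of leukocyte counter-receptors include an item that is not reported here, so only its rises are given. Labels gave the groups. Members, lists and tests were chosen with earlier results of these data known. Where the labels name no animal, p-values cover the spread between samples, which may be technical.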

Additional observations from a re-analysis of the deposited data

How the results depend on the processing

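No paired analysis was possible because no number is shared between groups. Scaling by RLE or upper-quartile factors left each of 58 member results on its side of the limit. Called members without the fold limit numbered 4, 5, 5, 9 and 9 for 65 and 75 Gy at 2 weeks, 65 and 75 Gy at 6 weeks and the mean. With the fold limit kept, called members numbered 2, 4, 4, 5 and 5 with scaling to the pan-endothelial list. For 75 Gy at 2 weeks they were 2 with DESeq2, with edgeR's exact test and with an unadjusted p. The all-gene counts of those fits are not given here, so these member counts are not set against a background. With at least 10 counts in every library Ackr1 was not tested, leaving 0 for 65 Gy at 6 weeks and 1 for the mean. For the change of effect with time 1 was called at either dose with DESeq2 or an unadjusted p. Leaving out 1 library gave 0 to 1, 0 to 2, 1 to 2, 3 to 5 and 1 to 2 called members. Over all genes the same fits called 677 to 1093, 1097 to 2053, 604 to 1275, 1777 to 2548 and 1737 to 1944. Genes most like a member kept 13 of 30 by Spearman and 3 by deviations. Scaling to the pan-endothelial list reversed Nos3 (0.37, 0.68, 0.46, 0.45 and mean 0.49), Angpt2 (0.22, 0.47, 0.22, 0.61 and mean 0.38), Edn1 (0.027 for 75 Gy at 2 weeks, 0.13, 0.31 and mean 0.072), Vwf (0.11 for 65 Gy at 6 weeks), Sele (0.75 for 75 Gy at 2 weeks) and Icam1 (1.13 for 75 Gy at 6 weeks), which follows from the all-gene shift. Icam1 at 75 Gy and 6 weeks, near 0, was also 0.0059 with every gene of at least 1 count, 0.012 with at least 10 counts in every library, 0.039 with upper-quartile factors and 0.0049 with only the groups compared. With 1 library left out it ran from -0.038 to 0.061, Sele from -0.27 to 0.42 and -0.35 to 0.36 and Nos3 from -0.39 to 0.022 and -0.29 to 0.11 for 65 and 75 Gy at 2 weeks. Over all genes 960, 1707, 1164, 2297 and 1871 were called in the 5 comparisons, and without the fold limit 2422, 4922, 3234, 7935 and 9175. With the fold limit kept, pan-endothelial scaling gave 2459, 6616, 6167, 12464 and 7158, and an unadjusted p gave 1560 in the first comparison. The second gave 834 with only the groups compared and 1097 without library 3134, the third 604 without 3138 and 743 without 3140, and the mean 995 with at least 10 counts in every library. Between doses 0 and 0 genes were called, with DESeq2 7 and 14, and 127 between controls, with DESeq2 221 and with only those groups 32. The change of effect called 56 (75 Gy) and 3 (65 Gy), with DESeq2 299 and 79. Pan-endothelial scaling moved the share of higher calls from 79.8%, 73.2%, 82.1%, 69.9% and 80.7% to 97.9%, 99.0%, 99.6%, 99.8% and 99.6%. The causes were not tested. The exact test gave no value for the mean or the change of effect. Depth limits Ackr1 and Sele, and groups of 2 or 3 libraries limit the rest.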
